A study of Mus musculus with 6 samples.

Results

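The 10 genes described here encode glutathione S-transferases and were measured in organoids of mouse intestine, a culture in which gut stem cells form epithelium. They are Gsta1, Gm3776, Gsta2, Gsta3 and Gsta4 of the alpha class, Gstm1 and Gstm3 of the mu class, Gstp1 of the pi class, Gsto1 of the omega class, and Mgst1, a membrane-bound microsomal enzyme. They were taken by symbol from a count table of 24786 gene symbols, and all 10 were found there. Wild-type organoids had been dissociated into single cells and exposed for 16 h to 100 µM tyramine (3 libraries, titled TA100) or to the control (3 libraries, titled DMSO). Tyramine is an amine that gut bacteria make from tyrosine. The series' design describes the control as medium, and it is not given whether DMSO was present with tyramine. The labels give neither the part of the gut, nor the strain or age of the mice, nor whether replicates came from separate mice or cultures. The p-values therefore reflect no more than the spread of these 6 libraries, and that spread may be technical.

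Glutathione S-transferases join the tripeptide glutathione to electrophilic compounds, which include drugs, dietary toxins and aldehydes formed when lipids are oxidised. The soluble enzymes work as dimers of subunits from the same class, and alpha class enzymes are abundant in liver and in the absorptive cells of the small intestine. Many of these genes carry antioxidant response elements, through which the transcription factor NRF2 acts on them. The conjugates leave the cell through ABC transporters and are trimmed by peptidases at the cell surface to cysteine conjugates, which are acetylated to mercapturates.

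Several of these genes are near-identical copies of one another, and the promoter stretches of 3 of them are shown because they make visible how alike the copies are. Each line gives 200 bases that end just before the transcription start in RefSeq, 5′ to 3′ on GRCm38.p6. Capitals mark the longest run of letters that all 3 stretches hold, which is 29 bases.
Gsta1, chr9:78230469-78230668, plus strand: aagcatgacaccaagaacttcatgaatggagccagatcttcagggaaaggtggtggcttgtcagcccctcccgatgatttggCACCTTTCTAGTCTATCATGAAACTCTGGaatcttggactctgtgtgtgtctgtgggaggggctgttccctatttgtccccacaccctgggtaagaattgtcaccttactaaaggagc
Gm3776, chr9:78256929-78257128, plus strand: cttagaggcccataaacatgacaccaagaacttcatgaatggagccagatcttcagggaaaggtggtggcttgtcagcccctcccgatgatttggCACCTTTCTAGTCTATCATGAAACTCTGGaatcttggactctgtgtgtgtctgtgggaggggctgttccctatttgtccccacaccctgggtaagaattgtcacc
Gsta2, chr9:78347146-78347345, minus strand: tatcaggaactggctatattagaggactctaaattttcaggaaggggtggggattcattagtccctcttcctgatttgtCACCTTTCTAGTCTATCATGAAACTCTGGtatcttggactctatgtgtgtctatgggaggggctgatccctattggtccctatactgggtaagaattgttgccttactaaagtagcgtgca
The start that RefSeq gives for Gsta2 lies inside the longer GENCODE M21 gene. Gsta1 and Gm3776 hold a common run of 184 bases in these stretches. Their aligned promoter windows were 99.0% identical, against 80.3% for Gsta1 and Gsta2. In the longest open reading frames of the GENCODE M21 transcripts, Gsta1 was 99.7% identical to Gm3776, 97.9% to Gsta2 and 97.3% to Gm10639, a further copy in the same cluster. Identity to the other alpha genes was lower, at 76.1% for Gsta3 and 68.1% for Gsta4.

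The likeness bears on the counts, since the labels give paired reads of 150 bases each. Of all windows of 150 bases in the Gsta1 transcript, 73.7% occurred unchanged in a transcript of another gene, and in Gm3776 77.7% did. The share was 26.8% for Gsta2, whose copies were Gsta1, Gm3776 and Gm10639, and 41.8% for Gstp1, which shares them with Gstp2 and the pseudogene Gstp-ps. It was 3.44% for Gstm3 and 0 for Gsta3, Gsta4, Gstm1, Gsto1 and Mgst1. How the counting treated reads that match several genes is not given, so the counts of Gsta1 and Gm3776 were also summed. Single values of Gsta1, Gm3776, Gsta2 and Gstp1 are uncertain to that extent. Sprr2a1 and Sprr2a2, another pair of genes in the table, had identical counts in every library. If a shared read was counted for each gene it matches, sums and shares of the copies count it more than once. Which rule was used was not tested.

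Among the 10 genes, 6 rose with tyramine, 2 fell and 2 did not pass the test (quasi-likelihood test of edgeR, p adjusted by Benjamini-Hochberg to under 0.05). The risers were Gsta2 and Gsta3, each about 7-fold higher, and Gsta1, Gm3776, Gstm1 and Gstp1, which rose 1.53-fold to 1.76-fold. The genes that fell were Gstm3, 5.50-fold lower, and Gsta4, 1.58-fold lower. Across all 12139 genes tested, 25.8% were called, 12.5% higher and 13.3% lower. All 10 members passed the filter on low counts. Their median log2 fold change was 0.67, against 0.00 over all genes tested and -0.19 over 18 other tested genes of the family. The 10 genes were chosen with earlier results of these data known, and Gsta1 and Gm3776 share reads. The comparison of medians is therefore not a test of the family. In bulk RNA, fewer cells of a type and less RNA per cell cannot be told apart.

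Markers of absorptive cells moved with these groups. All 10 enterocyte markers fell, and their summed level was 3110 to 3176 CPM (counts scaled by TMM to a common library size) with tyramine and 15608 to 16460 CPM in controls. Of 9 epithelial markers, 2 rose and 4 fell, with summed levels of 17842 to 20134 CPM with tyramine and 20047 to 21609 CPM in controls. The part of these shifts in the values of the transferase genes and of the pathway genes was not tested. Of other cell types, 5 hepatocyte markers, 1 of them tested and lower, summed to 0.278 to 1.87 CPM with tyramine and 9.37 to 15.3 CPM in controls. Markers of fibroblasts, immune cells, endothelium and smooth muscle summed to at most 21.3 CPM in any library, and none that was tested passed.

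**Figure D1:**
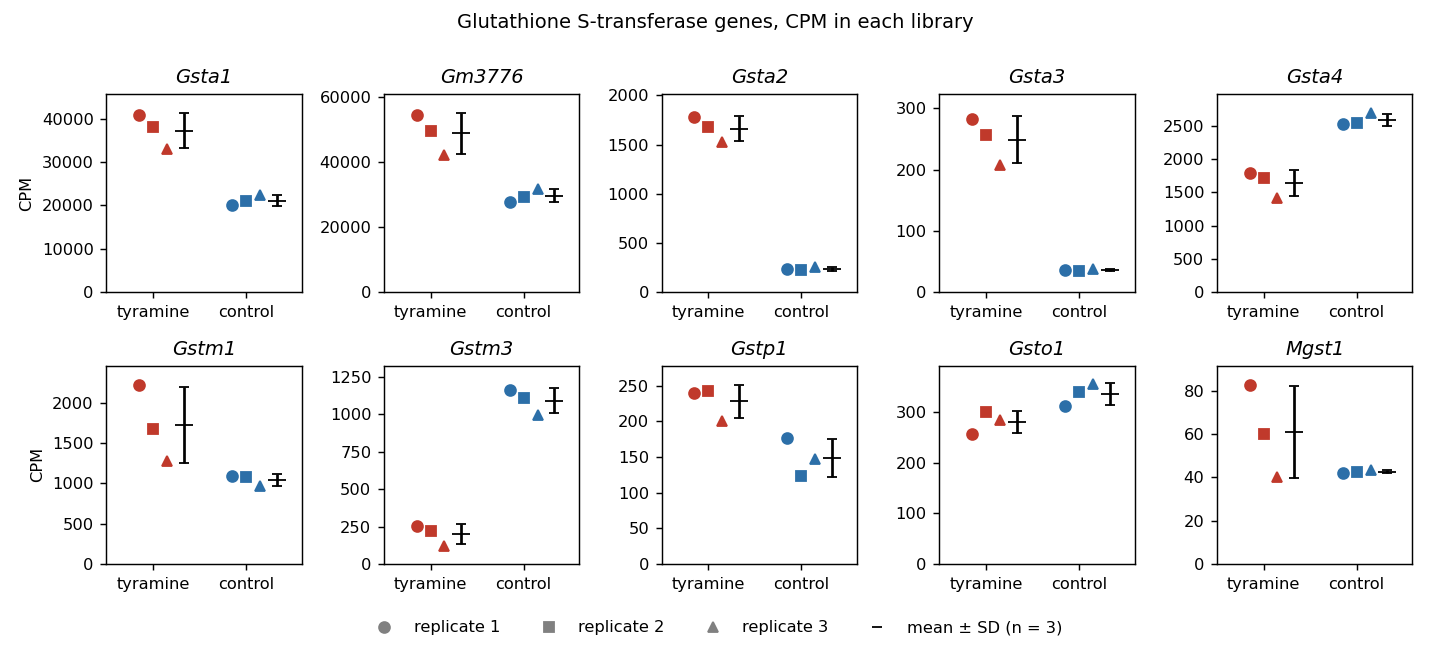
CPM (TMM-scaled counts, linear axes from 0) of the 10 genes in each tyramine and control library; symbols stand for replicates and the black bars for the mean ± SD of 3 libraries. Groups overlap only for Mgst1, where the tyramine libraries run from 40.0 to 82.6 CPM and the controls from 41.9 to 43.3 CPM.

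The 10 genes together took 9.96%, 9.19% and 7.73% of all counts in tyramine replicates 1 to 3, and 5.57%, 5.82% and 6.01% in control replicates 1 to 3. Each tyramine library was above each control. The means were 8.96% ± 1.13 with tyramine and 5.80% ± 0.222 in controls (SD, n = 3 each), with an exact two-sided permutation p = 0.1, which is the smallest that 3 against 3 libraries allow. Nearly all of this share was Gsta1 and Gm3776, so the family's total follows these copies. They held 8.37% ± 1.04 of counts with tyramine and 5.23% ± 0.236 in controls. The other 8 genes held 0.587% ± 0.0921 with tyramine and 0.569% ± 0.0142 in controls, which differed by less than the spread between the tyramine libraries (exact permutation p = 0.7). Library totals ran from 29176428 to 32489563 counts with tyramine and from 28316372 to 35035955 in controls. When library sizes and scaling were computed without Gsta1, Gm3776 and Gm10639, the log2 fold change of the summed pair was 0.76, the same as with them.

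**Figure D2:**
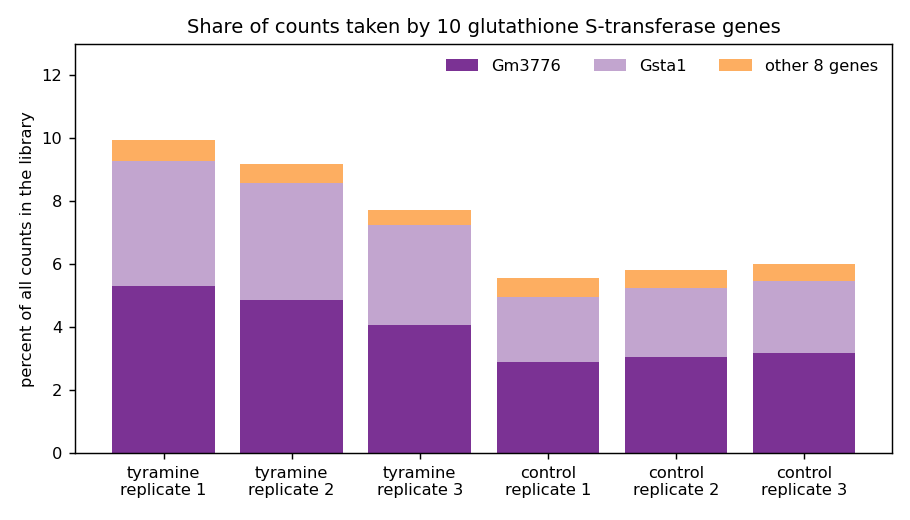
Percent of all counts in each library (stacked bars from 0) taken by Gm3776, Gsta1 and the other 8 genes, tyramine replicates on the left. The tyramine bars reach 7.73% to 9.96% and the control bars 5.57% to 6.01%.

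Gsta1 and Gm3776, alpha class subunits encoded side by side, were the most abundant of the 10. Their summed level was 95582, 87689 and 75354 CPM in tyramine replicates 1 to 3, against 47836, 50399 and 54200 CPM in control replicates 1 to 3. The groups did not overlap, and the sum rose 1.70-fold (log2 fold change 0.76 with SE 0.0896, edgeR adjusted p = 0.00023). The counts listed for each copy rose as well. Most windows of read length in either transcript occur unchanged in another gene, and how shared reads were counted is not given. A rise in either copy alone could therefore appear in the counts of both. Whether each copy rose by itself cannot be told from the values that follow. Gsta1 (chromosome 9, 78230656 to 78242684, plus strand) had 40838, 38014 and 32993 CPM with tyramine, against 20074, 20921 and 22450 CPM in controls. It averaged 37282 ± 3973 CPM with tyramine and 21148 ± 1204 CPM in controls. In each group Gm3776 (chromosome 9, 78257129 to 78269166, plus strand) was the higher of the 2. Its libraries had 54744, 49675 and 42361 CPM with tyramine, against 27762, 29478 and 31749 CPM in controls. Its averages were 48927 ± 6226 CPM with tyramine and 29663 ± 2000 CPM in controls. Neither gene's tyramine libraries overlapped its controls. The log2 fold changes were 0.82 (SE 0.0865, edgeR adjusted p = 0.00011) for Gsta1 and 0.72 (SE 0.0955, edgeR adjusted p = 0.00048) for Gm3776.

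The split of counts between these copies shifted little. Gm3776 had 1.34, 1.31 and 1.28 counts for each count of Gsta1 in tyramine replicates 1 to 3, and 1.38, 1.41 and 1.41 in the controls, a small difference without overlap (exact permutation p = 0.1, the smallest possible). A further copy, Gm10639, which lies between them and Gsta2, averaged 7204 ± 2494 CPM with tyramine and 4850 ± 852 CPM in controls and did not pass the test (log2 fold change 0.57 with SE 0.228, edgeR adjusted p = 0.10). Its tyramine values ranged from 4929 CPM in replicate 3 to 9871 CPM in replicate 1 and overlapped the controls. Without tyramine replicate 3 the log2 fold change was 0.78 and passed (edgeR adjusted p = 0.0071), and without tyramine replicate 1 it was 0.28 (edgeR adjusted p = 0.30).

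Gsta2, an alpha class subunit known in rodent liver for its induction by xenobiotics, had 1776, 1679 and 1527 CPM in tyramine replicates 1 to 3, against 233, 222 and 258 CPM in the control libraries. Every tyramine library was well above every control. It lies at the far end of the cluster (chromosome 9, 78331018 to 78355788, minus strand) and rose 6.99-fold (log2 fold change 2.80 with SE 0.10, edgeR adjusted p = 2e-07). Reads shared with its copies bear on this value, so the counts of Gsta2 were set against theirs. For each 1000 counts of Gsta1 and Gm3776, Gsta2 had 18.6, 19.2 and 20.3 in the tyramine libraries and 4.87, 4.40 and 4.77 in the controls. The counts of Gsta2 therefore did not keep a fixed ratio to those of the pair (exact permutation p = 0.1, the smallest possible).

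Gsta3, which in mouse detoxifies the reactive epoxide of aflatoxin, is encoded apart from the others on chromosome 1 (21240589 to 21265661, plus strand) and shares no window of read length with another gene. Its level was 282, 257 and 208 CPM in tyramine replicates 1 to 3 and 36.6, 35.2 and 37.9 CPM in control replicates 1 to 3. The groups lay far apart, and Gsta3 rose 6.81-fold (log2 fold change 2.77 with SE 0.142, edgeR adjusted p = 1.1e-06).

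Gsta4, the alpha class enzyme specialised for 4-hydroxynonenal and related products of lipid oxidation, fell while Gsta1, Gm3776 and Gsta2 of the same cluster rose. It had 1788, 1717 and 1414 CPM in the tyramine libraries, against 2527, 2537 and 2695 CPM in the controls, and no tyramine library reached a control. The gene opens the cluster on chromosome 9 (78182774 to 78209349, plus strand), and its log2 fold change was -0.66 (SE 0.0971, edgeR adjusted p = 0.00091). Within libraries, the log2 ratio of Gsta4 to the Gsta1 and Gm3776 sum averaged -5.72 ± 0.0368 with tyramine and -4.29 ± 0.0463 in controls. That difference of -1.42 does not depend on how libraries are scaled (exact permutation p = 0.1, the smallest possible). Adjusted over the 2 log2 ratios, this one and that of Gstm3 to Gstm1, the permutation p was 0.1. The other ratios given were not part of that adjustment.

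**Figure D3:**
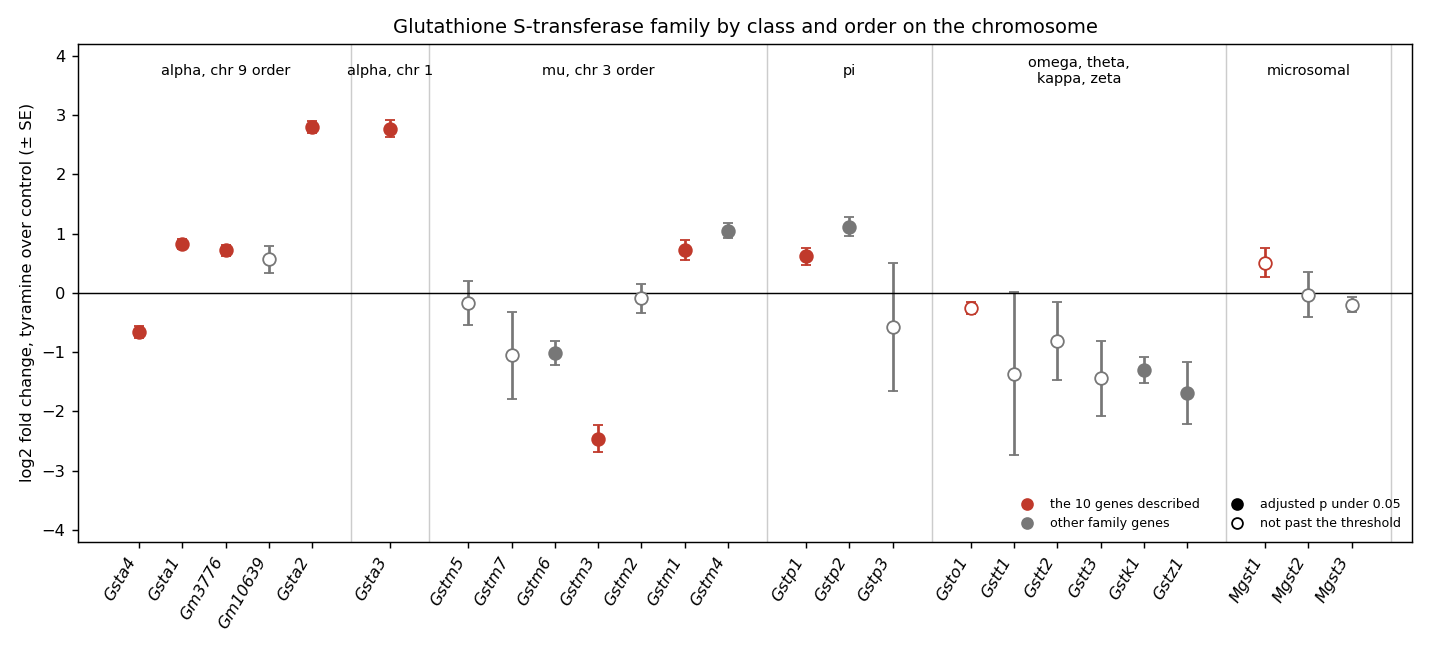
Log2 fold change of tyramine over control (± SE, edgeR) for the soluble and microsomal glutathione S-transferase genes tested (Gstcd, Hpgds and Ptges2 are not drawn), by class and, for the clusters on chromosomes 9 and 3, in the order of the genes along the chromosome; red marks the 10 genes described and filled points passed the test. Gsta4 lies below 0 while Gsta1, Gm3776 and Gsta2 lie above it, and Gstm3 lies below 0 while Gstm1 and Gstm4 lie above it.

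In the mu class, Gstm1 and Gstm3 moved in opposite directions. Gstm1 (chromosome 3, 108012255 to 108017973, minus strand), a broadly expressed subunit, had 2216, 1673 and 1274 CPM in tyramine replicates 1 to 3, against 1087, 1081 and 962 CPM in control replicates 1 to 3. All tyramine libraries were above the controls, but they differed more among themselves. Gstm1 rose 1.65-fold (log2 fold change 0.72 with SE 0.168, edgeR adjusted p = 0.011), and without control replicate 3 it missed the threshold (log2 fold change 0.66, edgeR adjusted p = 0.061).

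Gstm3 (chromosome 3, 107963696 to 107969283, minus strand), another mu class subunit, had 255, 218 and 123 CPM in the tyramine libraries and 1165, 1110 and 999 CPM in the controls. It showed the largest fall of the 10, 5.50-fold lower (log2 fold change -2.46 with SE 0.228, edgeR adjusted p = 5.8e-05), and its groups were far apart. Gstm1 and Gstm3 were counted almost equally in controls, with 0.933, 0.975 and 0.963 counts of Gstm1 for each count of Gstm3. In the tyramine libraries the same ratio was 8.70, 7.69 and 10.4. On the log2 scale, Gstm3 over Gstm1 averaged -3.15 ± 0.217 with tyramine and 0.06 ± 0.0324 in controls. The difference was -3.21 (exact permutation p = 0.1, the smallest possible, and 0.1 adjusted over the same 2 log2 ratios).

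The mu genes lie in one cluster of 7 on chromosome 3 that spans 149.1 kb, in the order Gstm5, Gstm7, Gstm6, Gstm3, Gstm2, Gstm1 and Gstm4. Gstm6 and Gstm3, next to each other, fell, with log2 fold changes of -1.01 and -2.46. At the other end Gstm1 and Gstm4 rose, with log2 fold changes of 0.72 and 1.05. Gstm5, Gstm7 and Gstm2 did not pass the test, with log2 fold changes of -0.17, -1.05 and -0.09. Gstm4 had 209, 168 and 165 CPM with tyramine, against 85.1, 87.8 and 89.9 CPM in controls, without overlap. Gstm6 had 80.4, 87.8 and 48.7 CPM with tyramine, against 140.0, 156 and 141 CPM in controls, also without overlap.

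Gstp1, the pi class enzyme (chromosome 19, 4035407 to 4037985, minus strand), had 240, 242 and 201 CPM in tyramine replicates 1 to 3, against 176, 123 and 147 CPM in control replicates 1 to 3. The lowest tyramine library was above the highest control by a small margin. Gstp1 rose 1.53-fold (log2 fold change 0.62 with SE 0.145, edgeR adjusted p = 0.011), and it missed the threshold without control replicate 2 (log2 fold change 0.49, edgeR adjusted p = 0.058) or control replicate 3 (0.60 and edgeR adjusted p = 0.053). Its neighbour Gstp2, 98.1% identical in the open reading frame, had 136, 164 and 141 CPM with tyramine and 78.1, 53.6 and 71.3 CPM in controls (log2 fold change 1.12 with SE 0.162, edgeR adjusted p = 0.00079). A split of shared reads between Gstp1 and Gstp2 would not change their sum, though counting such reads for both genes would. The sum averaged 375 ± 32.1 CPM with tyramine and 216 ± 38.8 CPM in controls, a 1.73-fold rise (log2 fold change 0.79, edgeR adjusted p = 0.0023).

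Promoters of both pi genes hold the letters TGAGTCAGC, in which TGAGTCA is the recognition sequence of AP-1 factors and also the core of elements bound by small MAF and NRF2 dimers. The stretches around the match are shown because Gstp1 was the member whose promoter window held these letters, which are in capitals, 5′ to 3′ on GRCm38.p6.
Gstp1, chr19:4037968-4038031, minus strand: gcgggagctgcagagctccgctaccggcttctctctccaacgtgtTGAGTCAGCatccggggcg
Gstp2, chr19:4042292-4042355, minus strand: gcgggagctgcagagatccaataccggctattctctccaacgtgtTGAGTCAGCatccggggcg
Of 32851 promoter windows of 300 bases in the RefSeq table, 0.414% held TGAGTCAGC on either strand and 5.2% held TGAGTCA. A second form of the antioxidant response element, TGACNNNGC, was found in 12.4% of windows. Among the 9 members with an entry in that table it was found in Gsta3, 121 bases before the start, and in 1 of the windows of Mgst1, on the opposite strand. The windows of Gsta1, Gm3776, Gsta2, Gstm1, Gstm3 and Gsto1 held none of these letters. The windows lie close around the start, and sequence farther upstream was not searched. These matches describe the sequence and are not evidence of binding.

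Gsto1, the omega class enzyme that reduces dehydroascorbate and mixed disulfides (chromosome 19, 47854970 to 47864790, plus strand), had 257, 301 and 284 CPM with tyramine, against 313, 339 and 355 CPM in controls. The groups did not overlap, although the difference was small and did not pass the test (log2 fold change -0.26 with SE 0.101, edgeR adjusted p = 0.090). Scaled to library totals alone it did pass, with a log2 fold change of -0.34 (edgeR adjusted p = 0.028).

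Mgst1, a microsomal enzyme that also reduces lipid peroxides (chromosome 6, 138140316 to 138156755, plus strand), had 82.6, 59.9 and 40.0 CPM in tyramine replicates 1 to 3, against 41.9, 42.5 and 43.3 CPM in control replicates 1 to 3. The tyramine libraries spread around the controls, which lay close together. The log2 fold change was 0.51 (SE 0.243, edgeR adjusted p = 0.16), and it rested on single libraries. Without tyramine replicate 1 it was 0.23 (edgeR adjusted p = 0.48), and without tyramine replicate 3 it was 0.74 and passed (edgeR adjusted p = 0.010).

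Over the 10 genes, the groups did not overlap for 6 that were higher with tyramine and 3 that were lower. Of all tested genes, 44.5% had groups without overlap, 20.9% higher and 23.6% lower. Tyramine replicate 3 was the lowest of the tyramine libraries for 9 of the 10 genes, and for 36.2% of all tested genes. Gsto1, lowest in tyramine replicate 1, was the exception.

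**Figure D4:**
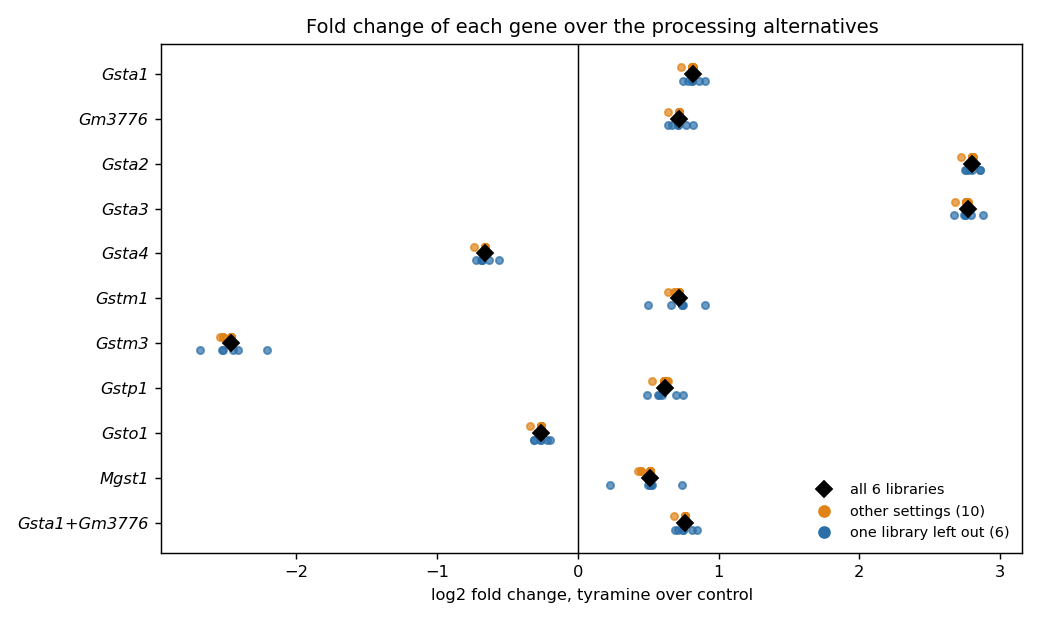
Log2 fold change of tyramine over control for each gene and for the summed pair with all 6 libraries (black diamonds), under 10 other processing settings (orange) and with each library left out in turn (blue). No gene crosses 0, and Gstm1, Gstm3 and Mgst1 move most when a tyramine library is left out.

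Per length of merged exons, the copies Gm3776 and Gsta1 stood far above the rest in both groups. With tyramine their levels were 55980 and 38997 CPM per kb, followed by Gsta2 at 1411, Gsta4 at 1295 and Gstm1 at 1168 CPM per kb. Given SDs of 106, 157 and 321 CPM per kb, the last 3 did not differ beyond their spread. Next came Gstm3 at 151, Gstp1 at 147 and Gsto1 at 139 CPM per kb, again within their spread, and then Gsta3 at 57.4 and Mgst1 at 30.2 CPM per kb. In controls the order after Gm3776 at 33940 and Gsta1 at 22122 CPM per kb was Gsta4 at 2043, Gstm3 at 832, Gstm1 at 709, Gsta2 at 202, Gsto1 at 166, Gstp1 at 96.0, Mgst1 at 21.2 and Gsta3 at 8.42 CPM per kb. The order of Gsta2, Gsta4 and Gstm1 with tyramine is therefore not resolved, and reads that Gsta2 shares with its copies bear on its level. The lower ranks depend on the length used. By the longest coding transcript (1.457 kb, against 4.344 kb of merged exons), Gsta3 had 171 CPM per kb with tyramine and 25.1 CPM per kb in controls. With tyramine, Gstm3 at 151 CPM per kb then ranked below Gsta3, and below Gstp1 at 277 and Gsto1 at 237 CPM per kb. In controls Gsto1 at 284 CPM per kb then came before Gsta2 at 273 CPM per kb. Gstm1 in controls was then at 810 CPM per kb, close to Gstm3 at 832 CPM per kb.

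Within the family, the weight of Gsta4 and Gstm3 was lower with tyramine and that of Gsta2 higher. Gsta4 made up 1.78% of the counts of the 10 genes with tyramine and 4.59% in controls, and Gstm3 made up 0.211% with tyramine and 1.95% in controls. Gsta2 made up 1.81% with tyramine and 0.422% in controls. Gsta1 made up 40.5% with tyramine and 37.5% in controls, and Gm3776 53.0% with tyramine and 52.6% in controls.

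A list of other genes of the family held 25. Of the 18 tested, 2 rose (Gstm4 and Gstp2), 3 fell (Gstm6, Gstk1 and Gstz1) and 13 did not pass, with a median log2 fold change of -0.19. These counts lie near the shares over all tested genes, of which 12.5% rose and 13.3% fell, and are not a result about the family. Gstk1, the kappa class enzyme of mitochondria and peroxisomes, averaged 15.1 ± 1.59 CPM with tyramine and 37.0 ± 4.6 CPM in controls (log2 fold change -1.30 with SE 0.226, edgeR adjusted p = 0.0024). Gstz1, the zeta class enzyme of tyrosine breakdown, had 10.5, 9.56 and 2.09 CPM with tyramine, against 20.0, 27.3 and 24.2 CPM in controls (log2 fold change -1.69, edgeR adjusted p = 0.037). It was singled out after its values were seen, and its call was lost without tyramine replicate 2 (edgeR adjusted p = 0.054) or any 1 control library (0.088 to 0.13).

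Among genes around the conjugation step, edgeR calls were all upward in the lists of glutathione supply and conjugate export. In the list of the mercapturate pathway they were all downward. Over all genes tested, 12.5% were called higher and 13.3% lower. These lists, too, were chosen with earlier results of these data known. The supply list of 10 genes also holds Chac1 and Chac2, whose enzymes break glutathione down. Of these 10 genes, 6 rose, 0 fell and 4 did not pass, with a median log2 fold change of 1.55. In edgeR, 2 of them, Chac1 and Oplah, were lower at an unadjusted p under 0.05 (0.029 and 0.018), and DESeq2 called 2 lower and limma-voom 1. Chac1 had 0, 0 and 0.313 CPM with tyramine and 1.65, 2.30 and 2.00 CPM in controls. The 4 with the smallest p were Slc7a11, the cystine carrier, Gsr, glutathione reductase, Gclc, the rate-limiting ligase of glutathione synthesis, and Slc3a2, the partner chain of Slc7a11. Their log2 fold changes were 3.29, 2.09, 4.36 and 2.07. Gclc had 1804, 1999 and 2952 CPM in tyramine replicates 1 to 3, against 124, 97.1 and 107 CPM in control replicates 1 to 3. It was highest in tyramine replicate 3, where 9 of the 10 transferase genes were lowest.

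Among 8 genes linked to conjugate export, 4 rose, 0 fell and 4 did not pass, with a median log2 fold change of 0.45. In edgeR 0 were lower at an unadjusted p under 0.05. At an adjusted p under 0.05, DESeq2 called 0 lower and limma-voom 1. Abcc2, the apical exporter of glutathione conjugates, averaged 2241 ± 293 CPM with tyramine and 1084 ± 48.6 CPM in controls (log2 fold change 1.05 with SE 0.101, edgeR adjusted p = 6.5e-05). Abcc4, Abcc1 and Abcc3, transporters of the same subfamily, rose 13.4-fold, 3.29-fold and 1.58-fold. Of 9 tested genes of the mercapturate pathway, 6 fell and 3 did not pass, with a median log2 fold change of -1.05 and a highest of -0.45. Of all genes tested, 12.5% rose and 13.3% fell. Anpep, aminopeptidase N of the brush border, had 25.8, 19.4 and 5.04 CPM with tyramine, against 826, 811 and 626 CPM in controls (log2 fold change -5.49 with SE 0.517, edgeR adjusted p = 9.6e-05). Ggt1, the gamma-glutamyltransferase that opens the conjugate, fell 6.78-fold. Dpep1, a membrane dipeptidase, fell 6.84-fold and Lap3, a leucine aminopeptidase, 2.06-fold. Without control replicate 1 or 2, 4 of the mercapturate genes fell, since Cndp2 and Acy1 lost their calls.

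**Figure D5:**
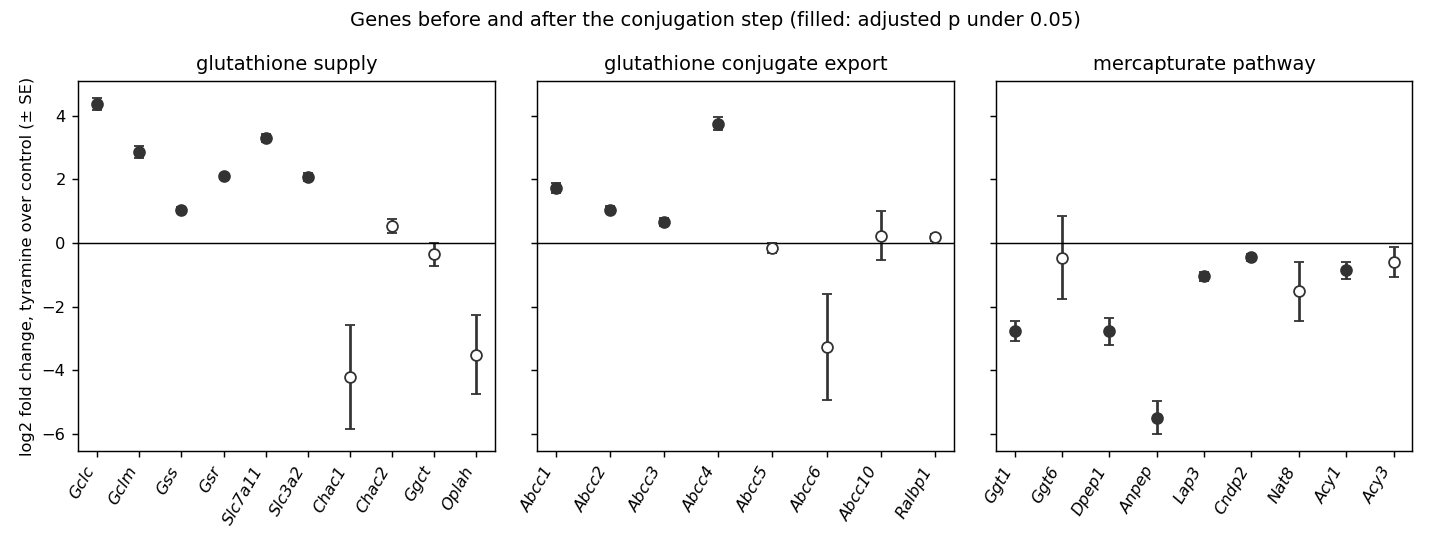
Log2 fold change of tyramine over control (± SE, edgeR) for the genes listed under glutathione supply, conjugate export and the mercapturate pathway, where filled points passed the test. In the first 2 panels the filled points lie above 0 (0.66 to 4.36) and in the third below 0 (-5.49 to -0.45).

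The genes whose profile over the 6 libraries was nearest that of the Gsta1 and Gm3776 sum, by root mean square distance of log2 CPM centred on controls, were Rrp9, Cbr1, Zfp830, Arhgap22 and Metap2, at distances of 0.0457 to 0.0813 among 11423 genes compared. For Gstm3 they were S100g, Sult6b2, Sprr2a1, Sprr2a2 and Cyp2c29, at 0.135 to 0.149. Sprr2a1 and Sprr2a2 had identical counts in every library, so they are 1 profile. The nearest to the sum, Rrp9, rose 1.74-fold, and the nearest to Gstm3, S100g, fell 5.16-fold. Cbr1, a carbonyl reductase, rose 1.67-fold. Cyp2c29, a cytochrome P450 and the farthest of those named for Gstm3, fell 6.19-fold. Arhgap22 did not pass the test (edgeR adjusted p = 0.11).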

How the data were processed

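RNA was sequenced from 6 libraries, 3 per group. Per the labels' protocols, a stranded mRNA kit added unique molecular identifiers and paired reads were taken on a DNBSEQ-T7 machine. The aligner STAR 2.5.3a and the build mm10 are named in the submitters' processing notes. Not given in the sources used here are the program that counted reads, its annotation and strand setting, and any use of the molecular identifiers. The authors deposited whole-number counts per gene symbol, without normalization. Of the counts from 1 to 8 in each library, 72.6% to 78.7% were even. The reason was not tested, and the alternatives below include halved counts.

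Groups came from the sample titles. Of 24786 symbols, 17057 had a count and 12139 passed edgeR's filterByExpr (minimum count 10, minimum total 15). edgeR 4.0.16 in R 4.3.3 (TMM scaling, robust quasi-likelihood test, no covariate) was run on all of these, with p-values adjusted by Benjamini-Hochberg over all of them and a threshold of 0.05. CPM values were computed with TMM-scaled library sizes. TMM factors ran from 0.961 to 1.04. The sum of Gsta1 and Gm3776 replaced both genes in a fit of 12138 rows. Single ratios and shares were compared by exact two-sided permutation tests over libraries. Gene positions are from GENCODE M21 on GRCm38 and promoters from RefSeq on GRCm38.p6. Alternatives used other scalings and filters, halved counts, robust estimation off, DESeq2 1.42.0, limma-voom (limma 3.58.1), a replicate block and each library left out. The procedure was tested on simulated data.

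The 10 genes and the lists were chosen with earlier results of these data known. From each pathway list the text names up to 4 called genes with the smallest p. Others are named where a small count contains them, or, as with Gm10639, for their sequence, and these were chosen after their values were seen. For the sum of Gsta1 and Gm3776 and for Gstm3, the 5 nearest profiles are named.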

Additional observations from a re-analysis of the deposited data

How the results depend on the processing

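Under 16 alternatives, none of the 10 genes or the summed pair changed direction. The log2 fold change of the sum ran from 0.68 to 0.85 and its largest edgeR adjusted p was 0.0035. Calls changed for Gstm1 and Gstp1 without single control libraries, for Mgst1 without tyramine replicate 3 and for Gsto1 with library totals alone, as given above; the cause was not tested. Of all tested genes, 3127 were called, and 1977 to 3307 with 1 library left out (1995, 1977 and 2075 without control replicates 1, 2 and 3). With library totals alone, 40.4% of calls were higher, against 48.5%. Over all tested genes, deviations of same-numbered libraries correlated at -0.0239, -0.0148 and 0.00618. Values this near 0 gave no sign of pairing over the genes as a whole, but they cannot show that the libraries were unpaired. With a replicate block 2594 genes were called, still 6 higher and 2 lower among the 10, and the sum's log2 fold change was 0.76 (edgeR adjusted p = 0.0013). Among the lists, lower calls reached at most 2 in glutathione supply and 1 in export. Levels per kb moved with the transcript length used for all members but Gm3776 and Gstm3. With 3 libraries per group, single ratios cannot reach an exact p below 0.1.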
